A study of Mus musculus with 2 samples.

Results

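The genes described here make, inactivate or sense prostaglandins and leukotrienes, lipid mediators derived from arachidonic acid. The list holds 10 genes, the cyclooxygenases Ptgs1 and Ptgs2, the synthases Ptges and Ptgis, the inactivating enzyme Hpgd, the prostaglandin receptor Ptger4, and Alox5, Alox5ap, Alox15 and Ltc4s of the lipoxygenase branch. Probes were chosen by the symbol that the array's annotation gives, brought up to date by gene ID, and 5 of the 10 genes had a probe that named them alone. These were Ptges, Ptgis, Hpgd, Alox5ap and Ptger4, with 1 probe each, out of 13840 named genes on the array. Ptgs1, Ptgs2, Alox5, Alox15 and Ltc4s were not analysed here. The values below therefore leave out both cyclooxygenases and 5-lipoxygenase itself, the enzymes that start each branch.

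RNA came from whole mouse lung 12 weeks after 3-methylcholanthrene, a polycyclic hydrocarbon carcinogen given once into the peritoneum at 15 µg per g of mouse. It was followed by the tumour promoter butylated hydroxytoluene in 6 weekly injections, the first at 150 µg per g and the later ones at 200 µg per g. One array was hybridised with pooled left-lobe RNA of 3 Rosa26-Foxm1 mice, which carry a transgene for the cell cycle transcription factor Foxm1, and the other with such a pool from 3 wild-type FVB/N mice. Both groups received the carcinogen and the promoter, so no untreated lung enters the comparison. The wild-type mice were male by their labels; the labels used here give no sex or strain for the Rosa26-Foxm1 mice, and no age for either group. The Rosa26 promoter, after which the mice are named, is active in most mouse tissues and not in 1 lung cell type.

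Arachidonic acid is freed from membrane phospholipids by phospholipases. Cyclooxygenases turn it into prostaglandin H2, from which separate synthases make prostaglandin E2, prostacyclin, prostaglandin D2 and thromboxane. In the other branch, 5-lipoxygenase and its helper protein make leukotriene A4, which becomes the neutrophil attractant leukotriene B4 or, after joining to glutathione, the cysteinyl leukotrienes that constrict airways. The lung is also a main site of prostaglandin clearance, by uptake into cells and oxidation.

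Intensities are normalised between the arrays and have no unit, and a floor was set at the median of each array, a normalised intensity of 1.00. Genes above the floor on 1 array or both are called measured, and 9518 named genes were. Differences are log2 values of Rosa26-Foxm1 minus wild type. Each genotype has 1 array, so no replicate spread could be set beside a difference, no test was made, and precision is limited by the number of arrays. The only error that could be measured is the probe SD, the error of a single probe's log2 difference, which was 0.31 from 317 genes with at least 2 measured probes. It was 0.38 for the dimmer of these genes and 0.23 for the brighter ones, and it covers neither variation between mice nor errors shared by an array. The Foxm1 probe was close to the floor, at 1.23 in Rosa26-Foxm1 and 1.13 in wild-type lung, and whether it detects the transgene is not stated in the labels used here. The lung markers Sftpc, Sftpb, Sftpa1, Sftpd, Scgb1a1, Aqp5 and Ager were all far above the floor on both arrays.

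All 5 genes were above the floor on both arrays, and none was 1.5-fold apart between the genotypes, a size that 15.6% of all measured genes reached in either direction; 3.5% reached 2-fold. Alox5ap was higher in Rosa26-Foxm1 lung, and Ptger4, Ptgis, Hpgd and Ptges were lower, with differences between -0.50 and 0.46. The median over the 5 genes was -0.37, beside -0.06 over all measured genes. Ptges alone differed by less than the probe SD, and the other 4 differed by more, as did 42.8% of all measured genes. A total of 4 of the 5 genes were below 0, as were 56% of all measured genes.

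**Figure D1:**
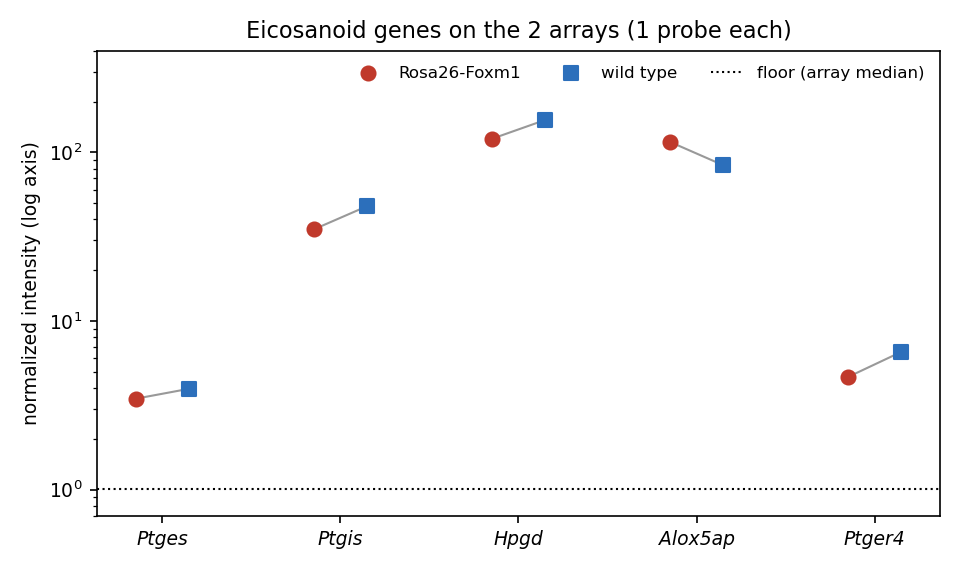
Normalised intensity (log axis, no unit) of the 5 measured genes, 1 probe each. Red circles are the Rosa26-Foxm1 array, blue squares the wild-type array, and the dotted line is the floor of 1.00; the line between the symbols slopes the other way for Alox5ap than for the remaining 4 genes. Heights of different genes cannot be compared, because each rests on a different probe.

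Ptges encodes the inducible microsomal prostaglandin E synthase, which acts after the cyclooxygenases. Its deposited intensity was 3.40 in Rosa26-Foxm1 and 4.01 in wild-type lung, and after normalisation it was 3.45 against 3.96. The log2 difference of -0.20 (1.15-fold lower) was 0.63 times the probe SD in size and lay at percentile 34.8 of all measured genes. The arrays did not separate the genotypes at this gene beyond the probe error.

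Ptgis encodes prostacyclin synthase, an enzyme of endothelial and smooth muscle cells whose product widens vessels and inhibits platelets. It had a deposited intensity of 35.4 in Rosa26-Foxm1 and 46.9 in wild-type lung, normalised to 34.9 and 47.9. The difference of -0.46 (1.37-fold lower) was 1.46 times the probe SD in size, at percentile 14.0 of all measured genes. Among the 2380 measured genes of the same brightness quartile it stood at percentile 12.4, and that quartile's middle 90% ran from -0.61 to 0.57.

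Hpgd encodes 15-hydroxyprostaglandin dehydrogenase, which oxidises prostaglandin E2 and starts its inactivation. Its intensity was 124 in Rosa26-Foxm1 and 147 in wild-type lung as deposited, and 120 against 155 after normalisation. The difference was -0.37 (1.29-fold lower), at percentile 19.5 of all measured genes. Of the 5 genes, Hpgd moved most with the scaling, to -0.24 with the deposited values. That is smaller than the probe SD of 0.31 and close in size to the 0.23 found for brighter genes.

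Alox5ap encodes the 5-lipoxygenase activating protein, a membrane protein of myeloid cells that presents arachidonic acid to 5-lipoxygenase. It was the gene of the 5 that was higher in Rosa26-Foxm1 lung, with deposited intensities of 119 in Rosa26-Foxm1 and 81.2 in wild-type lung and normalised intensities of 115 and 83.8. The difference of 0.46 (1.38-fold higher) was 1.47 times the probe SD, at percentile 88.9 of all measured genes and 91.8 within its brightness quartile. With median scaling it was 0.56, still short of 1.5-fold.

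Ptger4 encodes EP4, a receptor for prostaglandin E2 that raises cyclic AMP. Its deposited intensity was 4.58 in Rosa26-Foxm1 and 6.64 in wild-type lung, and 4.65 against 6.56 after normalisation. The difference of -0.50 (1.41-fold lower) was the furthest from 0 among the 5 genes, 1.58 times the probe SD in size and at percentile 12.2 of all measured genes. Ptger4 and Ptges were dim probes, below a floor set at the 75th percentile on both arrays, so neither had a value under that setting. The probe SD of dimmer genes was larger, at 0.38.

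**Figure D2:**
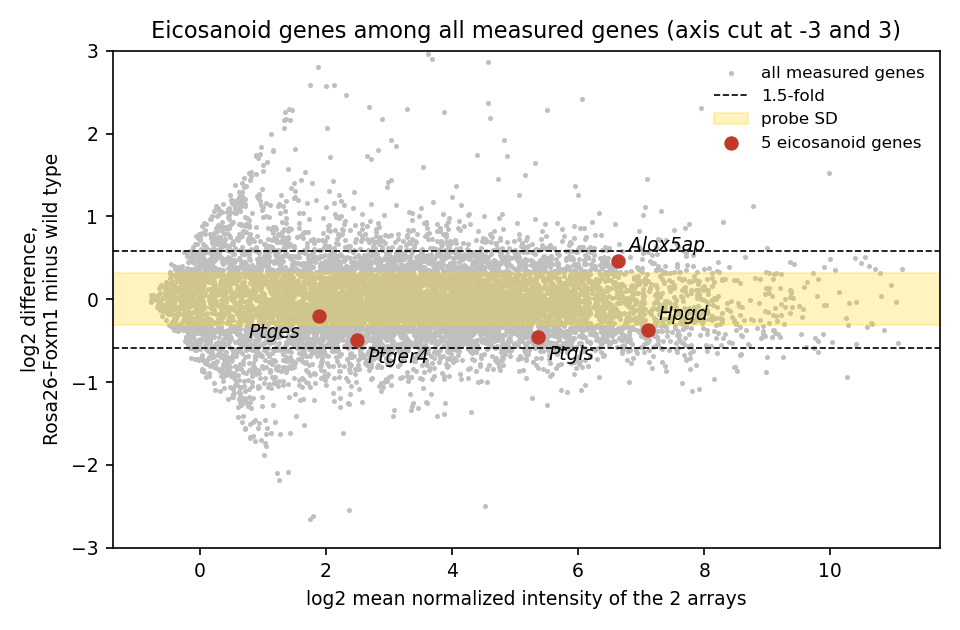
Log2 difference (Rosa26-Foxm1 minus wild type) against the log2 mean normalised intensity of the arrays, with 1 grey point for each measured gene and red points for the 5 eicosanoid genes; genes beyond the limits of the vertical axis are not drawn. The yellow band is the probe SD of 0.31 on either side of 0 and dashed lines mark 1.5-fold. The red points lie inside the dashed lines and within the cloud of genes of their brightness.

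Promoter windows in RefSeq (assembly GRCm38.p6), from 250 bases before to 50 after the annotated start, matched 3 of the 5 measured genes, Ptges, Hpgd and Ptger4. They are shown because they are all the measured genes of the list with a window, so their direction played no part in the choice. These 3 genes act in the synthesis, inactivation and reception of prostaglandin E2. All were lower in Rosa26-Foxm1 lung, Ptges by less than the probe SD. The letters searched, on both strands, were TATAAA for the TATA box, CCAAT for the CCAAT box, CACGTG for an E-box, TGACG for the cyclic AMP response element, TGANTCA for AP-1, the NF-kappaB motif and TAAACA for forkhead factors. No overlap between them occurred in these windows. Capitals mark the matches in the windows below, which read 5′ to 3′ on the strand of the gene.
Ptges, chr2:30903248-30903547, minus strand: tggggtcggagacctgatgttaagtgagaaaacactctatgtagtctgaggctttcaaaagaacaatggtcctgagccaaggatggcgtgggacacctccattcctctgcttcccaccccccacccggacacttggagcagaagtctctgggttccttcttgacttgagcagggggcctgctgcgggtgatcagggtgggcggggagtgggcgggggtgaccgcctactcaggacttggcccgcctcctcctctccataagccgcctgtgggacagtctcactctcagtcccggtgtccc
Hpgd, chr8:56294302-56294601, plus strand: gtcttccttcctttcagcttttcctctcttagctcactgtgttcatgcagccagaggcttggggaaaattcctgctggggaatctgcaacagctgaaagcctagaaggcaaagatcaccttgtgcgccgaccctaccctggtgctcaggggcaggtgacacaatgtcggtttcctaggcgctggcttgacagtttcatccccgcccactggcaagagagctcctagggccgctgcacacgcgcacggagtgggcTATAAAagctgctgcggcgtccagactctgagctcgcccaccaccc
Ptger4, chr15:5244138-5244437, minus strand: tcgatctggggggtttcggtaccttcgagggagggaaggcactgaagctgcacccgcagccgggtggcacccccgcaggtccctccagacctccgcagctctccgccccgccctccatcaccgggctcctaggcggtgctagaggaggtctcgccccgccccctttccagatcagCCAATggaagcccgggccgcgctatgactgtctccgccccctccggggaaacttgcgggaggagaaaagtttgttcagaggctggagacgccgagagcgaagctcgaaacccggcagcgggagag

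Hpgd held TATAAA at base 255 of its window, which lies 5 bases into the part after the annotated start and not before it, and 13.6% of the 32851 windows in the table hold these letters on either strand. Ptger4 held CCAAT on the gene's strand at base 176, as 37.4% of all windows do on either strand. The Ptges window held none of the 7 sets of letters, and TAAACA, found in 13.4% of all windows, was in none of the 3. No match says only that these letters are not in this window. The 3 windows also differed in base composition. Ptger4 was richest, with a GC content of 67% and 25 CG dinucleotides, beside 58% and 12 for Hpgd, 60% and 10 for Ptges, and medians of 52.7% and 7 over all windows. None of the searched letters was shared between the 3 windows.

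The wider pathway was described with 6 lists holding 71 further genes, of which 59 had a probe and 44 were measured. Among the 44, 9 were higher by 1.5-fold or more in Rosa26-Foxm1 lung (20.5%, against 7.1% of all measured genes) and 7 were at least 1.5-fold lower (15.9%, against 8.46%). Their median was 0.03. The lists were written with earlier results of these data known, so these shares describe the listed genes and cannot test the pathway. Some genes count as measured only through the array where they were bright. Among the 39 above the floor on both arrays, 8 were higher and 6 lower, with 6.02% and 7.7% of all such genes as background. Of all 44, 3 were at least 2-fold higher and none lower, against 1.99% and 1.51% of all measured genes. Among these 3, Hpgds counts as measured only through the Rosa26-Foxm1 array. The differences thus went both ways, and they are given below by step.

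**Figure D3:**
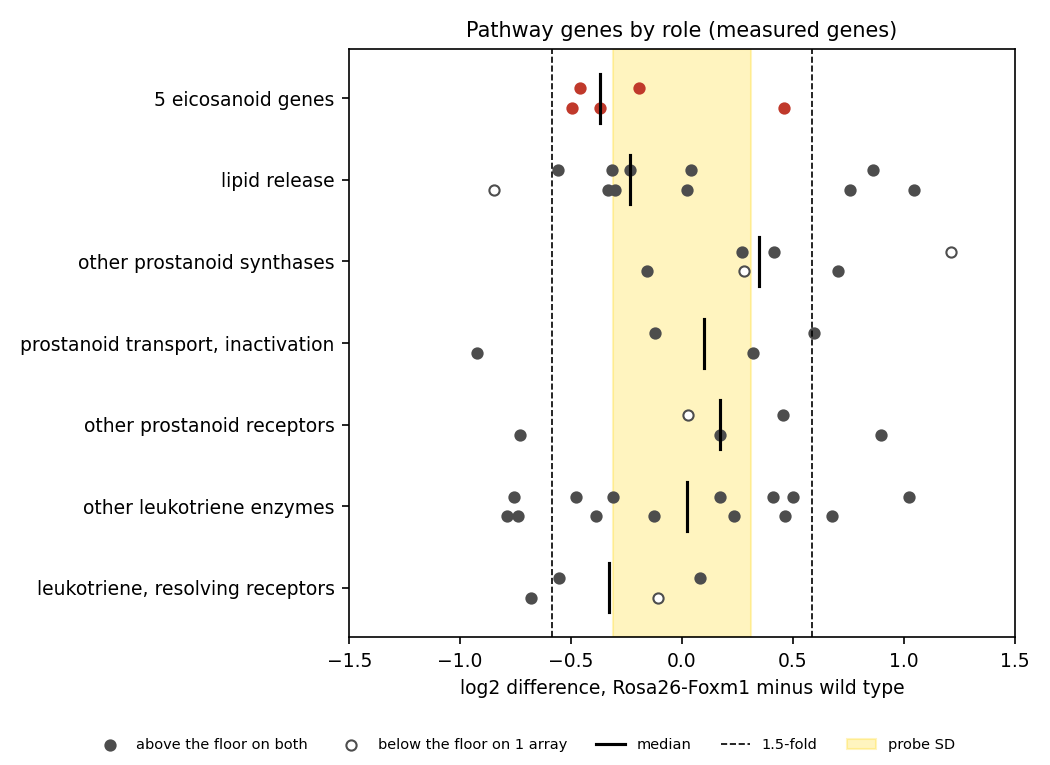
Log2 difference (Rosa26-Foxm1 minus wild type) of every measured gene, 1 point a gene, for the 5 eicosanoid genes in red and for 6 lists of other pathway genes by role. Open circles are genes below the floor on 1 array, whose difference is a lower bound in size; black ticks are medians, dashed lines 1.5-fold and the yellow band the probe SD. No red point passes a dashed line, while each of the other 6 lists has points beyond one of them or both.

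Of 23 genes of lipid release, 18 had a probe and 11 were measured, with 3 at least 1.5-fold higher and 1 lower. Their median was -0.24, but -0.04 with the deposited values and 0.02 with the floor at the 25th or 75th percentile, so it has no settled direction. Pla2g4a, the cytosolic phospholipase that supplies arachidonic acid to cyclooxygenases, was at 18.9 in Rosa26-Foxm1 and 18.4 in wild-type lung, a difference of 0.04. The secreted phospholipases Pla2g2d and Pla2g1b were 2.07-fold and 1.82-fold higher. Their deposited intensities were 3.95 in Rosa26-Foxm1 and 1.97 in wild-type lung for Pla2g2d, and 18.3 against 10.01 for Pla2g1b. Plaat3, an enzyme with phospholipase and acyltransferase activity, was 1.69-fold higher (56.6 against 33.5). Pla2g2e, a further secreted form, was below the floor in Rosa26-Foxm1 lung and at 1.81 in wild-type lung, at least 1.80-fold lower. The lysosomal phospholipase Pla2g15 (-0.56) and Pla2g5 (-0.33) were the next lowest.

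Beside Ptges and Ptgis, 6 of 8 other prostanoid synthases were measured, with a median of 0.35, 2 at least 1.5-fold higher and none lower. Hpgds, the prostaglandin D synthase of blood-derived cells, was at 2.33 in Rosa26-Foxm1 lung and below the floor in wild-type lung, at least 2.32-fold higher. Prxl2b, which makes prostaglandin F2α and its amide, was 1.63-fold higher (19.5 against 11.9). The other prostaglandin E synthases, Ptges2 at 0.27 and Ptges3 at -0.16, were within the probe SD, like Ptges itself. Ptgds, the other prostaglandin D synthase, was at 1.22 in Rosa26-Foxm1 lung and below the floor in wild-type lung. Cbr1, a carbonyl reductase acting on prostaglandins, was at 0.42.

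Clearance genes did not move alike. Slco2a1, the transporter that takes prostaglandins into cells for oxidation by Hpgd, was lower by both of its probes. Its brighter probe had 32.3 in Rosa26-Foxm1 and 61.3 in wild-type lung (-0.92, 1.90-fold lower), and the other had 8.83 against 13.1 (-0.57, 1.48-fold lower). Hpgd, the enzyme after it, was lower by the smaller amount given above (-0.37). Ptgr1, a reductase that acts on oxidised prostaglandins and on leukotriene B4, was in contrast 1.51-fold higher (100.1 against 66.2), a value just past the 1.5-fold size. Cbr3 differed by 0.32 and Ptgr2 by -0.12.

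Of the 8 prostanoid receptors other than Ptger4, 5 were measured. Ptgir, the prostacyclin receptor, was 1.86-fold higher, with 19.5 in Rosa26-Foxm1 and 10.5 in wild-type lung, while the prostacyclin synthase Ptgis was 1.37-fold lower. Ptgfr, the receptor of prostaglandin F2α, was 1.66-fold lower (7.08 against 11.7). Among the receptors of prostaglandin E2, Ptger2 was at 14.2 in Rosa26-Foxm1 and 12.6 in wild-type lung (0.17), on the other side of 0 from Ptger4 and smaller than the probe SD. Ptger1 was barely above the floor in Rosa26-Foxm1 lung and below it in wild-type lung, and Ptger3, Ptgdr and Ptgdr2 were below it on both arrays. The thromboxane receptor Tbxa2r was at 0.45.

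On the leukotriene side, 14 of 17 further enzymes were measured, with 2 at least 1.5-fold higher, 3 lower and a median of 0.02 (-0.03 with the deposited values). Mgst2, a microsomal glutathione transferase that can make leukotriene C4, was at 25.7 in Rosa26-Foxm1 and 12.7 in wild-type lung (2.04-fold higher). Mgst1, a related transferase mainly of detoxification, was 1.60-fold higher (231.9 against 145). Lta4h, which makes leukotriene B4, was at 5.88 in Rosa26-Foxm1 and 7.30 in wild-type lung (-0.31). Dpep1, a dipeptidase that turns leukotriene D4 into leukotriene E4, was 1.73-fold lower (37.5 against 64.9), and Ggt5, which acts in the step before, was at 0.41. The lipoxygenases Alox8 and Aloxe3, known from skin, were 1.69-fold and 1.67-fold lower close to the floor. Alox12 (-0.13) and Alox12e (0.24) differed by less than the probe SD.

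Alox5ap, Ptges, Mgst1, Mgst2 and Mgst3 belong to 1 family of small membrane proteins in eicosanoid and glutathione metabolism; they were brought together after their values were seen. The difference was 1.03 for Mgst2, 0.67 for Mgst1, 0.46 for both Mgst3 and Alox5ap, and -0.20 for Ptges. Alox5ap thus had the difference of the transferase Mgst3. Ptges was below 0, unlike the other 4 measured here, but by less than the probe SD. Ltc4s, also of this family, was not analysed.

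Leukotriene and resolving-lipid receptors were measured for 4 of 8 genes. The leukotriene B4 receptor Ltb4r1 was at 6.02 in Rosa26-Foxm1 and 5.70 in wild-type lung (0.08), whereas both cysteinyl leukotriene receptors, Cysltr1 and Cysltr2, were below the floor on both arrays. Gpr18, a receptor of lymphoid and myeloid cells that has been proposed to bind a resolving lipid, was 1.60-fold lower (7.20 against 11.5), and Fpr2, a receptor of formyl peptides and lipoxin, was at -0.55. Of 10 genes for inducers of prostaglandin synthesis, 5 were measured. The cytokine Il1a was 1.62-fold higher (4.90 against 3.02) and Tnf was lower (1.84 against 2.76, a difference of -0.59), and Il1b differed by 0.27. Il6, Tgfa and Nos2 were below the floor on both arrays.

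In whole lung, fewer cells of a type and less RNA per cell cannot be told apart, so markers of the cells that hold these genes are given beside them. Endothelial cells are known to express Ptgis and Slco2a1. Of 11 endothelial markers 10 were measured, with a median of -0.73. Of these, 9 were below 0 and 6 at least 1.5-fold lower. Over all measured genes, 56% were below 0 and 8.46% at least 1.5-fold lower. With the deposited values the endothelial median was -0.55, and Ramp2 was higher in Rosa26-Foxm1 lung (126.8 against 123.8). Sums over a list's probes are led by its brightest probes and are given as levels of that list only. The endothelial sum was 1292 in Rosa26-Foxm1 and 2051 in wild-type lung, and Pecam1 was at 156 against 329. The difference in Ptgis (-0.46) was smaller in size than the endothelial median of -0.73. That in Slco2a1 was larger by its brighter probe (-0.92) and smaller by its other probe (-0.57). All 10 measured markers of smooth muscle and fibroblasts, which also hold Ptgis, were below 0, with a median of -0.46 and sums of 1055 against 1252. This depended on the scaling. As deposited, the bright probes of Col3a1 (426.5 against 416.9) and Dcn (347.9 against 308.9) were higher in Rosa26-Foxm1 lung. The deposited sums were 1124.5 against 1160.6 and the median was -0.39. The part of either cell type in the Ptgis value was not tested.

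For Alox5ap, known from myeloid cells, macrophage markers were measured for 9 of 12 genes. At 1.5-fold, 1 was higher and 2 were lower, beside 7.1% and 8.46% of all measured genes. The median of these markers was -0.36. Their range ran from -1.26 for Siglecf, a sialic acid-binding lectin, to 0.71 for the immunoglobulin receptor Fcgr1, and their sum was 1618 in Rosa26-Foxm1 and 1734 in wild-type lung. Lyz2 and Chil3 made up 94.6% of that sum in Rosa26-Foxm1 and 94.3% in wild-type lung, and with the deposited values it ran the other way, 1773 against 1623. A floor at the 75th percentile brought the macrophage median to -0.10. Of 10 neutrophil markers 7 were measured, with sums of 496 against 691. Of these 7, 6 were below 0, as were 56% of all measured genes. Mast cells, also a source of leukotrienes and of Hpgds, had 5 of 10 markers measured, with sums of 161 in Rosa26-Foxm1 and 196 in wild-type lung. Their defining genes Cpa3, Fcer1a and Ms4a2 and the tryptase Tpsab1 were below the floor on both arrays. The other tryptase, Tpsb2, was 2.01-fold higher (30.2 against 15.1). The receptor Kit was 1.72-fold lower (39.2 against 67.3) and the transcription factor Gata2 was at -0.58. The pair of Cma1 probes differed in sign. The mast cell median was -0.58, but -0.07 with the median over measured probes and 0.12 with no floor. Of the eosinophil markers, Siglecf alone was measured, and Epx, Prg2, Il5ra and Ccr3 were below the floor on both arrays. Of 8 platelet markers 5 were measured, with a median of 0.32. Of these 5, 4 were above 0 and 1 below, and 43.9% of all measured genes were above 0. Pf4 was highest at 0.97 (53.1 against 27.0) and Gp5 lowest at -0.32 (3.18 against 3.97). The macrophage and neutrophil medians were below 0 under every setting run, though 4 of the 9 macrophage markers were above 0. The mast cell median has no settled direction. The part of these cells in the Alox5ap value was not tested.

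For Hpgd, which lung epithelium holds, the 8 measured epithelial markers of 10 had a median of -0.12, or 0.02 with median scaling or the deposited values, so its direction depends on the scaling. None was 1.5-fold apart, and the sums were 571 in Rosa26-Foxm1 and 619 in wild-type lung. As deposited, the sums were 594.9 against 597.1. Hpgd at -0.37 differed from the lowest of these 8 markers, Cdh1 at -0.31, by less than the probe SD, and with the deposited values Hpgd (-0.24) lay above Lamp3 (-0.29). The part of epithelial cells in the Hpgd value was not tested.

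**Figure D4:**
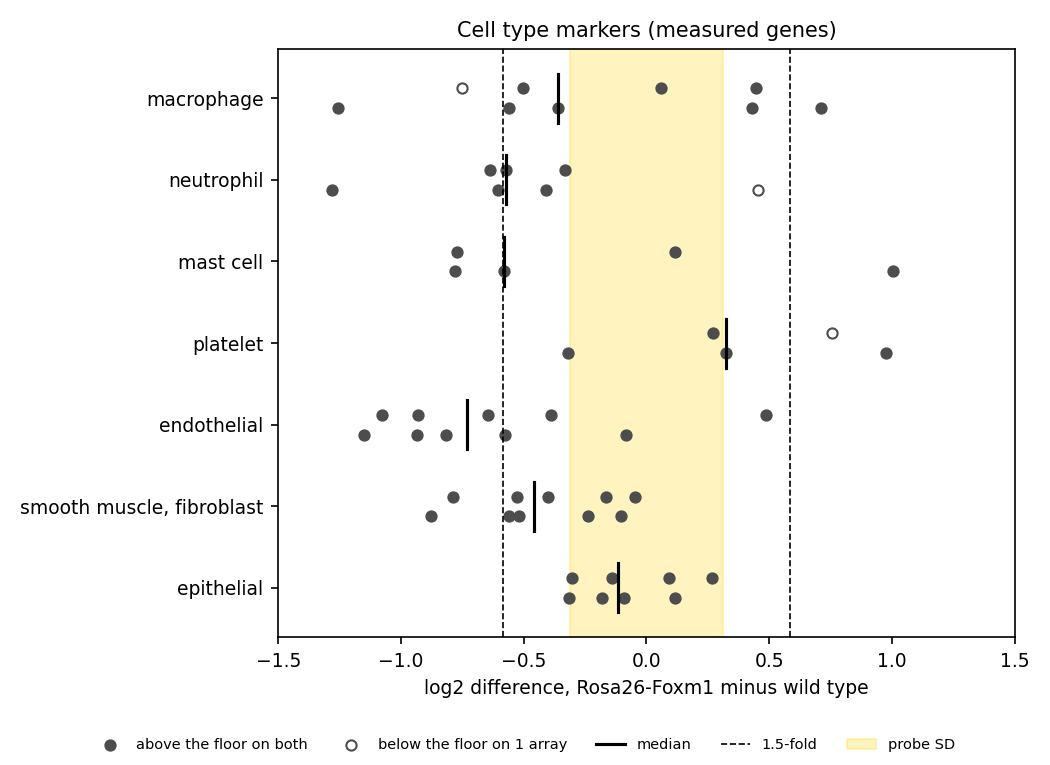
Log2 difference (Rosa26-Foxm1 minus wild type) of the measured markers of 7 kinds of cell, 1 point a gene, with open circles for genes below the floor on 1 array, ticks at medians, dashed lines at 1.5-fold and a yellow band for the probe SD. Of the endothelial markers 9 of 10 lie left of 0, epithelial markers lie close to 0, and macrophage markers lie on both sides.

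The direction of each of the 5 differences was the same under every other scaling and floor that gave a value, and the order of Alox5ap above and Ptges, Ptgis, Hpgd and Ptger4 below 0 did not depend on the normalisation.

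**Figure D5:**
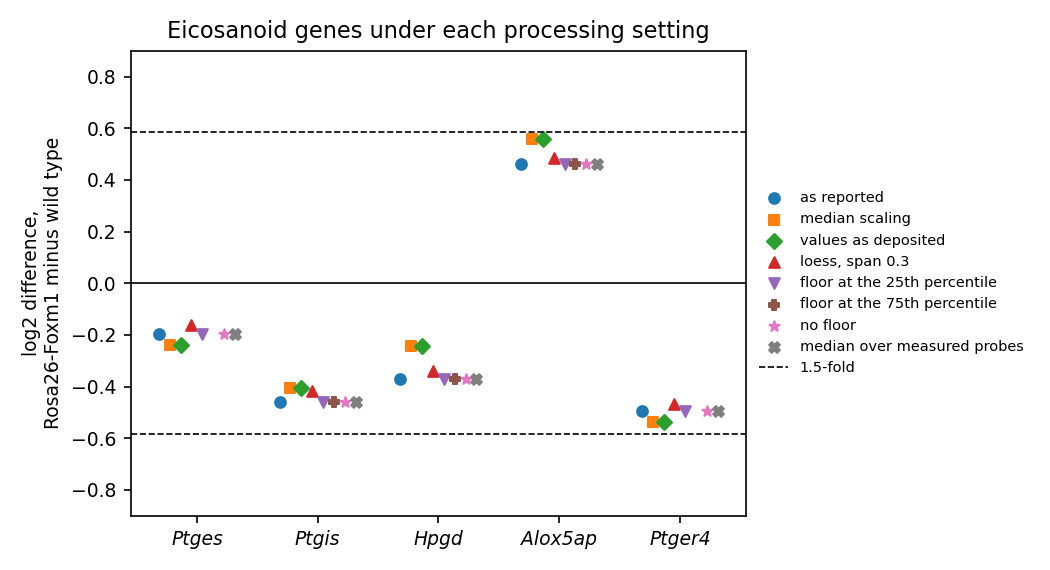
Log2 difference (Rosa26-Foxm1 minus wild type) of the 5 eicosanoid genes under the reported processing and 7 alternatives, 1 symbol a setting, with dashed lines at 1.5-fold. No gene crosses 0 or a dashed line. Symbols for the other floors and for the median over probes repeat the reported value, so only the scalings move a symbol. Ptges and Ptger4 have no symbol for the floor at the 75th percentile, where both were below it.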

How the data were processed

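Digoxigenin-labelled RNA was hybridised to one-colour chemiluminescent arrays, 1 per genotype, each with RNA pooled from 3 mice, per the labels' protocols. The deposited values are linear probe intensities with a median of 1.00 on both arrays, so the authors had already scaled them. How the images were read and corrected for background is not stated in the labels used here. No detection calls were used.

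Of 33012 probes, 14411 named 1 gene, 247 named several and were not used, and 18354 had no gene listed in the annotation used here. Of 13840 genes, 13832 matched RefSeq (GRCm38.p6) by gene ID.

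Values were quantile normalised, floored at the 50th percentile of each array and put on the log2 scale. A gene was represented by its brightest measured probe. The probe SD is the SD between the 2 brightest probes of a gene divided by the square root of 2. Folds against a floored value are lower bounds. Sizes of 1.5-fold and 2-fold were counted, with no p-value. The steps were tested on simulated data and run in Python 3.11.15 with numpy 2.4.6, pandas 2.3.3 and statsmodels 0.14.6.

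Genes named are the 5 measured ones, and of each pathway or marker list up to 3 at each end plus pathway genes past 1.5-fold; genes outside this rule are named as steps of the pathway or as below the floor, and were chosen after their values were seen. The members and lists were chosen with earlier results of these data known. The processing was repeated with other scalings (median, none beyond the deposited values, loess with a span of 0.3), other floors (25th percentile, 75th percentile, none) and the median of a gene's measured probes.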

Additional observations from a re-analysis of the deposited data

How the results depend on the processing

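Each gene kept its direction and stayed within 1.5-fold under all 7 alternatives that gave it a value, but only the other scalings changed any value. With 1 probe per gene, above the floor on both arrays, the lower floor, no floor and the probe median could only repeat the reported value. Median scaling and the deposited values are nearly the same setting, because both arrays were deposited with a median of 1.00. The ranges were -0.24 to -0.16 for Ptges, -0.46 to -0.41 for Ptgis, -0.37 to -0.24 for Hpgd, 0.46 to 0.56 for Alox5ap and -0.54 to -0.47 for Ptger4. The floor moved the counts, because it sets which dim genes are measured. Counts follow in the order 1.5-fold higher, 1.5-fold lower, 2-fold higher and 2-fold lower. With the floor at the 25th percentile they were 10, 11, 4 and 4 for the other pathway genes, and 1361, 1548, 540 and 533 of all 12451 measured genes. With the floor at the 75th percentile they were 7, 4, 1 and 0, and 238, 289, 44 and 21 of 5495. With no floor they were 12, 12, 6 and 4, and 1827, 2000, 792 and 827 of 13840, and the pathway median was 0.080. List medians that changed sign were those of lipid release, other leukotriene enzymes, epithelial and mast cell markers, given above, and of the lung markers, at -0.20 as reported and 0.12 with median scaling. No result past 1.5-fold among the named pathway genes changed sign. No paired analysis was possible because each genotype has 1 array. Signal close to the floor limits the values of Pla2g2d, Pla2g2e, Alox8, Aloxe3, Hpgds, Ptgds and Ptger1. A further 15 of the other pathway genes had no value because they were below it on both arrays.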
